A study of Mus musculus with 61 samples.

Results

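The data were 11 Tri-C maps of the mouse immunoglobulin heavy chain locus, Igh, in resting primary B cells, taken from 61 maps in all. They were chosen by their labels as the libraries made before activation, and they look at the same stretch of the genome from 4 viewpoints. The hs4 probe has 2 libraries at 0 h, the Emu probe 2 at 0 h, the IgG1 probe pool 4 at 0 h, and the IgG3 probe pool 3 at day 0 of a separate series named for LPS. All 11 carry the name B18AIDKO in their titles, which the labels do not spell out, and the treatment label WT. The only medium given is the one used for activation, with LPS and IL4. The IgG1 libraries are labelled clone 1 and clone 2, with 2 libraries each, and the rest clone 1. What a clone is, and whether libraries come from separate animals or cultures, is not given, so the p-values below measure the spread between these samples, which may be technical. At 0 h 1 library of each probe and clone is titled as replicates 1 and 3 together. The IgG1 clones were averaged by replicate number, which gave 9 samples: 2 each for hs4, IgG1 and Emu, and 3 for IgG3. Because all IgG3 maps come from the LPS series and all others from the activation series, viewpoint and series cannot be told apart wherever IgG3 differs from the rest.

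Igh holds a row of constant region genes, each of which gives the antibody a different class. Class switch recombination, started by the enzyme AID, joins the switch region in front of Ighm to that of a gene further on. Emu, the intronic enhancer, lies near Ighm and the J segments at one end of this row, and hs4 is an enhancer of the 3' regulatory region beyond the other end. In a resting B cell no switch gene has yet been chosen, and the contacts between both enhancer ends form the starting state of the locus. In Tri-C, a read that joins the viewpoint to 2 further fragments gives a contact, which is a pair of places found together with the viewpoint. A contact thus has 2 ends, and both where the ends lie and how they pair up can be read from the map.

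Each map is made of bins of 1 kb with no coordinates, so places are given by their distance in bins. Along the map the sites lie in the order hs4, IgG2a (a probe site of the study that is not a viewpoint here), IgG1, IgG3 and Emu, with 54, 57, 27 and 60 kb between neighbours. RefSeq's GRCm38.p6 table, used for gene order alone because the maps were made on mm9, lists Igha, Ighe, Ighg2c, Ighg2b, Ighg1, Ighg3, Ighd and Ighm before the J segments, and the probes follow the same order. Bins within 10 of any viewpoint were left out, and a contact was kept where both its ends lay in the remaining bins. These form 4 stretches: 21 kb beyond hs4, 90 kb from hs4 to IgG1, 6 kb from IgG1 to IgG3, and 39 kb from IgG3 to Emu. They were divided into 16 blocks of about 10 kb, numbered along the map. Blocks 1 and 2 lie beyond hs4, and block 2 is nearer to it. Blocks 3 to 11 run from hs4 to IgG1, with block 3 at 11 to 20 kb from hs4, block 4 at 21 to 30 kb, block 5 at 31 to 40 kb, block 9 at 31 to 40 kb from IgG1 and block 11 at 11 to 20 kb from IgG1. Block 12 lies between IgG1 and IgG3. Blocks 13 to 16 run from IgG3 to Emu, with block 13 at 11 to 20 kb from IgG3, block 14 at 30 to 39 kb from Emu, block 15 at 20 to 29 kb and block 16 at 11 to 19 kb from Emu. Kept contacts were 37.1% to 48.1% of the signal of a library. The signal was deposited scaled to a total of 300000, and whole contacts recovered from it numbered 11916 to 29495 per library, of which 5313 to 12570 were kept. The Emu libraries were the shallowest, with 5313 and 6062 kept contacts, and the hs4 libraries the deepest, with 11317 and 12570. Over the percentages of 16 blocks of about 10 kb, on a log2 scale, replicates correlated at 0.96 for hs4, 0.98 for IgG1, 0.87 to 0.95 for IgG3 and 0.74 for Emu (Pearson's r over 16 blocks, which share a library). Values of the Emu viewpoint are therefore the least precise. Each IgG1 sample averages both clones while the other samples are single libraries, so the IgG1 correlation and SDs are not on a like footing.

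The viewpoints differed in where along the locus their ends lay. The stretches are bounded by the viewpoints, and contacts thin out with distance, so a viewpoint beside a stretch is favoured by position. The shares and tests of the stretches are not adjusted for this. The stretch from hs4 to IgG1 took most ends from hs4 and fewest from IgG3, and the stretch from IgG3 to Emu took most from IgG3 and Emu and fewest from hs4. Seen from hs4, the hs4 to IgG1 stretch held 76.8% and 80.1% of kept ends in the 2 samples. From IgG1 it held 67.6% and 68.7%, from Emu 62.5% in both samples, and from IgG3 58.4%, 57.9% and 53.6%. No 2 viewpoints overlapped. The stretch spans 57.7% of kept bins, so by this measure the IgG3 samples lay about at its share and those of hs4 well above it. The viewpoints differed in an exact permutation test of the F statistic over 7560 arrangements of the 9 samples, with a p of 0.000794, the smallest it can give, and 0.00278 after Benjamini-Hochberg adjustment over 7 single values.

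The stretch from IgG3 to Emu, which is 25% of kept bins, held 33.3% ± 1.01 (SD, n = 3) of ends from IgG3 and 30.6% ± 1.44 (n = 2) from Emu. It held 22.7% ± 1.07 from IgG1 and 17.1% ± 2.00 from hs4 (n = 2 each). The samples of the 4 viewpoints did not overlap here either, and the exact permutation test gave an adjusted p of 0.00278. Of the viewpoints at constant genes, IgG3, which borders this stretch, thus placed more of its ends there than IgG1 did. The short stretch between IgG1 and IgG3 held 6.44% ± 0.522 of ends from IgG1 and 5.27% ± 0.599 from IgG3, against 2.27% ± 0.469 from Emu and 1.77% ± 0.0191 from hs4. Its exact permutation test gave an adjusted p of 0.00741. The stretch beyond hs4 is 13.5% of kept bins, and from every viewpoint it held far less than that share. Its means were 4.81% from IgG3, 4.61% from Emu, 2.71% from hs4 and 2.67% from IgG1, and the exact permutation test did not pass (adjusted p = 0.110). The order of the means in these 3 differing stretches was the same with contacts under 5 kb apart left out. There, the hs4 to IgG1 stretch held 77.3%, 68.8%, 65.2% and 61.1% of ends from hs4, IgG1, Emu and IgG3, and each of the 3 tests gave an adjusted p of 0.0375. With 5 bins left out on either side of each viewpoint in place of 10, the 3 tests still passed, but the order turned in the stretches near the constant genes. IgG1 to IgG3 then held 17.4% of ends from IgG3 and 13.1% from IgG1, and IgG3 to Emu held 37.5% from Emu and 33.3% from IgG3.

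**Figure D1:**
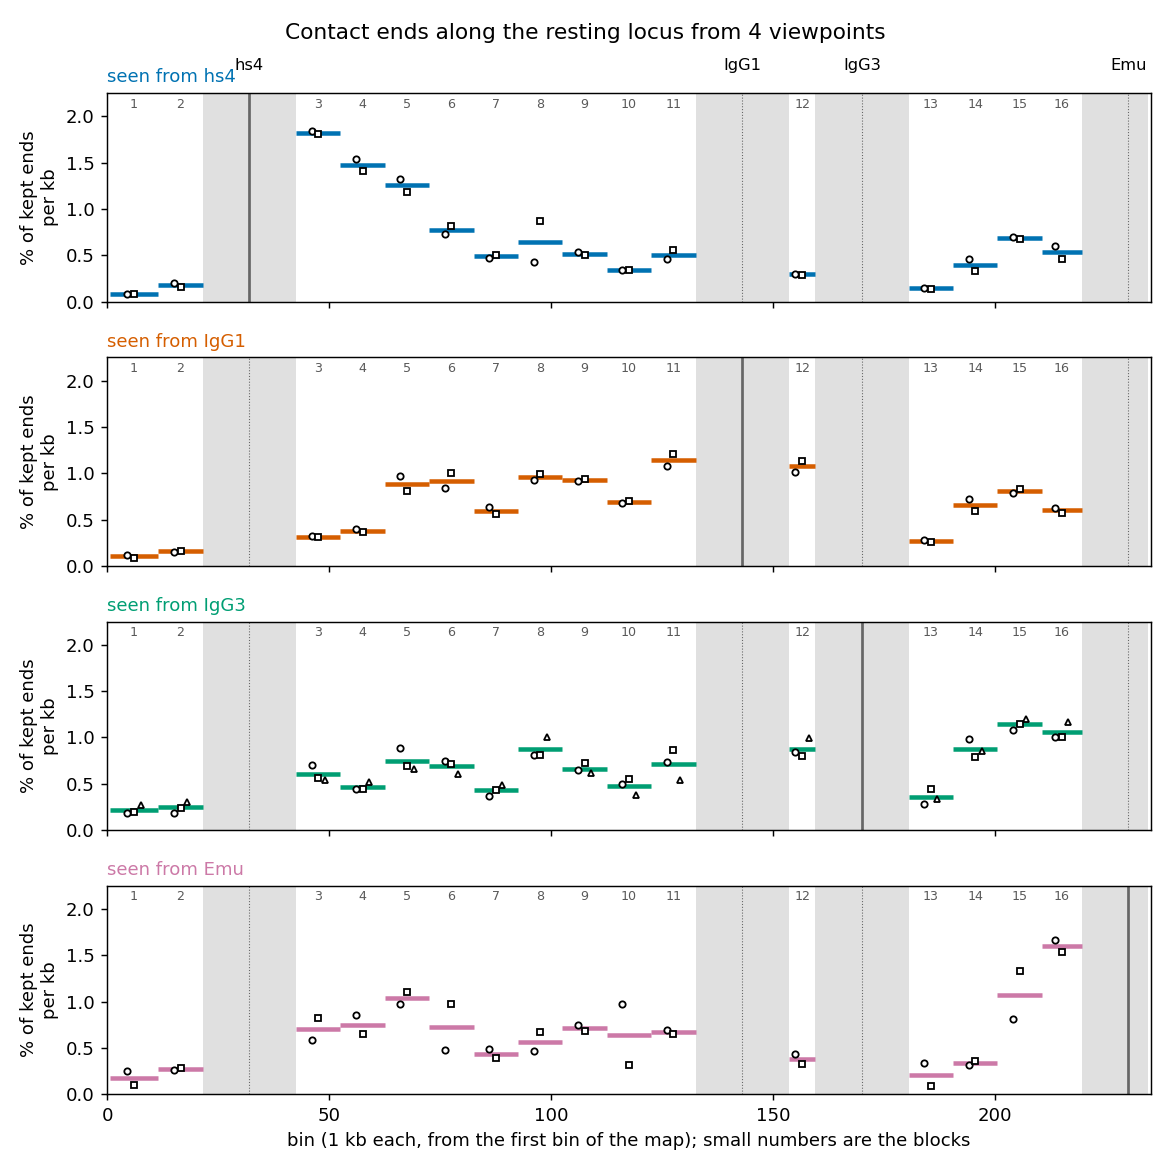
Percent of kept contact ends per kb (vertical axis) along the map in bins of 1 kb (horizontal axis), with small numbers for the blocks and 1 panel per viewpoint. Coloured bars are block means, open symbols are samples, grey bands are the bins left out around the 4 viewpoints and the thick line is the viewpoint of the panel. From hs4 the level steps down from 1.83 to 0.492% per kb between block 3 and block 7, and from all 4 viewpoints it is low at blocks 1, 2 and 13.

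At the level of blocks, 11 of 16 differed among the viewpoints in limma's F test after adjustment, which is 68.8% of those tested. The count was 14 and 15 without Emu replicate 1 and 2, 5 and 7 without hs4 replicate 1 and 2, 5 without either IgG1 replicate, and 9, 7 and 8 without IgG3 replicate 1, 2 and 3. The blocks next to hs4 separated the viewpoints most. At block 3, hs4 put 18.5% and 18.1% of its ends in the 2 samples, IgG1 3.19% and 3.16%, IgG3 7.07%, 5.59% and 5.41%, and Emu 5.81% and 8.27%. So Emu, which lies 182.5 kb away, placed a larger share in this block than IgG1 at 95.5 kb, with no overlap of their samples. On the log2 scale IgG1 was lower than hs4 there by -2.52 ± 0.23 (SE, limma with Benjamini-Hochberg adjustment, adjusted p = 1.57e-05) and lower than Emu by -1.13 ± 0.23 (limma, adjusted p = 0.00326).

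The next block, block 4, repeated this order at the far end. It held 14.7% ± 0.897 of ends from hs4, 7.51% ± 1.46 from Emu, 4.69% ± 0.395 from IgG3 and 3.78% ± 0.230 from IgG1. IgG1 was lower than Emu by -0.98 ± 0.20 (limma, adjusted p = 0.00326). IgG3 was lower than Emu by -0.67 ± 0.18 (limma, adjusted p = 0.0274), a call that was lost when Emu replicate 1, either IgG1 replicate, or IgG3 replicate 1 or 2 was left out, with an adjusted p of up to 0.0980. Relative to hs4, Emu was lower by -1.40 ± 0.23 at block 3 and by -0.99 ± 0.20 at block 4, and IgG3 by -1.61 ± 0.21 and -1.65 ± 0.18. These 4 calls and those of IgG1 against hs4 and Emu in both blocks stayed past the threshold when each of the 9 samples was left out in turn. At block 5 IgG3 was also lower than hs4, by -0.76 ± 0.20 (limma, adjusted p = 0.00886), and without hs4 replicate 1 the adjusted p was 0.0647.

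Toward the middle of the locus, IgG1 held the most. Block 11, next to it, took 11.4% ± 0.879 of its ends, 7.14% ± 1.63 of those of IgG3, 6.73% ± 0.282 of those of Emu and 5.07% ± 0.696 of those of hs4. Block 9, 35.5 kb from IgG1, took 9.28% ± 0.158 from IgG1 and 5.19% ± 0.183 from hs4, a log2 difference of 0.84 ± 0.18 (limma, adjusted p = 0.00334). IgG3 was lower than IgG1 by -0.70 ± 0.22 at block 11 and by -0.49 ± 0.16 at block 9 (limma, adjusted p = 0.0495 for each). Both of these were near the threshold and passed it in 3 and 2 of the 9 fits that left out a sample, with an adjusted p of up to 0.237. Between IgG1 and IgG3, at block 12, IgG1 exceeded hs4 by 1.86 ± 0.21 and Emu by 1.51 ± 0.21, and IgG3 exceeded them by 1.56 ± 0.19 and 1.22 ± 0.19. All 4 were called in each fit that left out a sample. IgG1 and IgG3 lie at the same distance of 13.5 kb from this block, and their difference was not among the 5 blocks called between them (31.2% of 16).

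On the Emu side, the block at block 16 took 15.0% and 13.8% of ends from Emu, 9.08%, 9.02% and 10.5% from IgG3, 5.61% and 5.18% from IgG1, and 5.38% and 4.20% from hs4. Emu exceeded hs4 by 1.60 ± 0.20 (limma, adjusted p = 0.000264), and IgG1 was lower than Emu by -1.41 ± 0.20 (limma, adjusted p = 0.000353). IgG3 exceeded IgG1 by 0.82 ± 0.18 (limma, adjusted p = 0.0119), and without either IgG1 replicate the adjusted p reached 0.154. Emu itself met block 14 little. Although this block is 34.5 kb from Emu, its samples held 3.10% and 3.59% of ends there, below all IgG1 samples (7.18% and 5.92%, 52.5 kb away) and all IgG3 samples (9.81%, 7.93% and 8.54%, 25.5 kb away). IgG3 exceeded Emu in that block by 1.39 ± 0.21 (limma, adjusted p = 0.000849). IgG1 exceeded Emu by 0.97 ± 0.23 (limma, adjusted p = 0.00599), and without IgG1 replicate 1 the adjusted p was 0.0772.

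The counts of called blocks by contrast were 3 for Emu against hs4 (18.8% of 16), 6 for IgG1 against hs4 (37.5%), 9 for IgG3 against hs4 (56.2%), 7 for IgG1 against Emu (43.8%) and 4 for IgG3 against Emu (25%). Of the 29 differences in blocks that the rule for naming picked, 17 stayed called with each sample left out. The block means of hs4 and Emu, at the far ends, correlated at 0.80 on the log2 scale and those of IgG3 and IgG1 at 0.81, against 0.51 for IgG1 and hs4. These are descriptions over 16 blocks from the same libraries. At block 1, IgG3 exceeded hs4 by 1.28 ± 0.37 (limma, adjusted p = 0.0144) and IgG1 by 1.08 ± 0.37 (limma, adjusted p = 0.0495). Neither held up. Without contacts under 5 kb apart the 2 differences turned to -0.66 and -1.08, and leaving out hs4 replicate 1 or 2 or IgG3 replicate 3 ended both calls (adjusted p of up to 0.0647 and 0.237). The second was also lost without either IgG1 replicate or IgG3 replicate 1 or 2. Likewise, at block 13 IgG3 exceeded hs4 by 1.26 ± 0.43 (limma, adjusted p = 0.0298), which was lost without hs4 replicate 1 or 2 or IgG3 replicate 2 or 3, at up to 0.113.

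How contacts thinned out with distance differed by viewpoint and by side. From hs4 toward the constant genes, ends went from 1.83% ± 0.0277 per kb at 11 to 20 kb down to 0.160% ± 0.000261 over 140 to 160 kb away, and were again 0.576% ± 0.0765 over 160 to 180 kb away (n = 2). The lowest point is block 13 and the start of block 14, and the higher values beyond it are nearer to Emu. On its other side hs4 put 0.176% ± 0.0302 per kb at 11 to 20 kb, so at equal distance the side of the constant genes held far more, with no overlap between the sides. Emu also had a low point with higher values beyond it. From 1.52% ± 0.0892 per kb at 11 to 20 kb it went down to 0.235% ± 0.184 at 41 to 60 kb. The kept bins of that class lie in block 13, so the low point is at the same place as from hs4, not at the same distance. The level of Emu over 160 to 180 kb away, near hs4, was 0.895% ± 0.0135.

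IgG1, between the ends, had an uneven course. Toward hs4 it went from 1.14% ± 0.0879 per kb at 11 to 20 kb to 0.775% ± 0.00512 over 40 to 60 kb away, was again 0.904% ± 0.00274 over 60 to 80 kb away, and stood at 0.348% ± 0.0126 over 80 to 100 kb away, next to hs4. Beyond hs4 it was 0.141% ± 0.010 over 120 to 140 kb away. Toward Emu it was 1.07% ± 0.0870 at 11 to 20 kb, 0.544% ± 0.0707 over 40 to 60 kb away and 0.685% ± 0.0325 over 60 to 80 kb away. IgG3 held 0.879% ± 0.0999 per kb toward hs4 at 11 to 20 kb, and 0.571% to 0.703% in the classes from 40 to 140 kb away. Beyond hs4 it held 0.253% ± 0.0629 over 140 to 160 kb away and 0.197% ± 0.0392 over 160 to 180 kb away. Toward Emu it held 0.355% ± 0.0786 at 11 to 20 kb, 1.01% ± 0.0336 at 21 to 40 kb and 1.06% ± 0.0959 at 41 to 60 kb (n = 3). At distances kept on both sides, the IgG1 viewpoint had more ends toward hs4 than toward Emu. Its log2 ratio was 0.38 and 0.47 in the 2 samples over 45 distances from 11 to 76 kb. For IgG3 the same ratio was -0.05, -0.01 and -0.29 over 18 distances from 11 to 49 kb, so no side was clearly favoured. The IgG3 ratio depended on which bins near the viewpoints were used, at 0.14 over 38 distances with 5 and -1.07 over only 2 distances with 15 left out on either side.

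**Figure D2:**
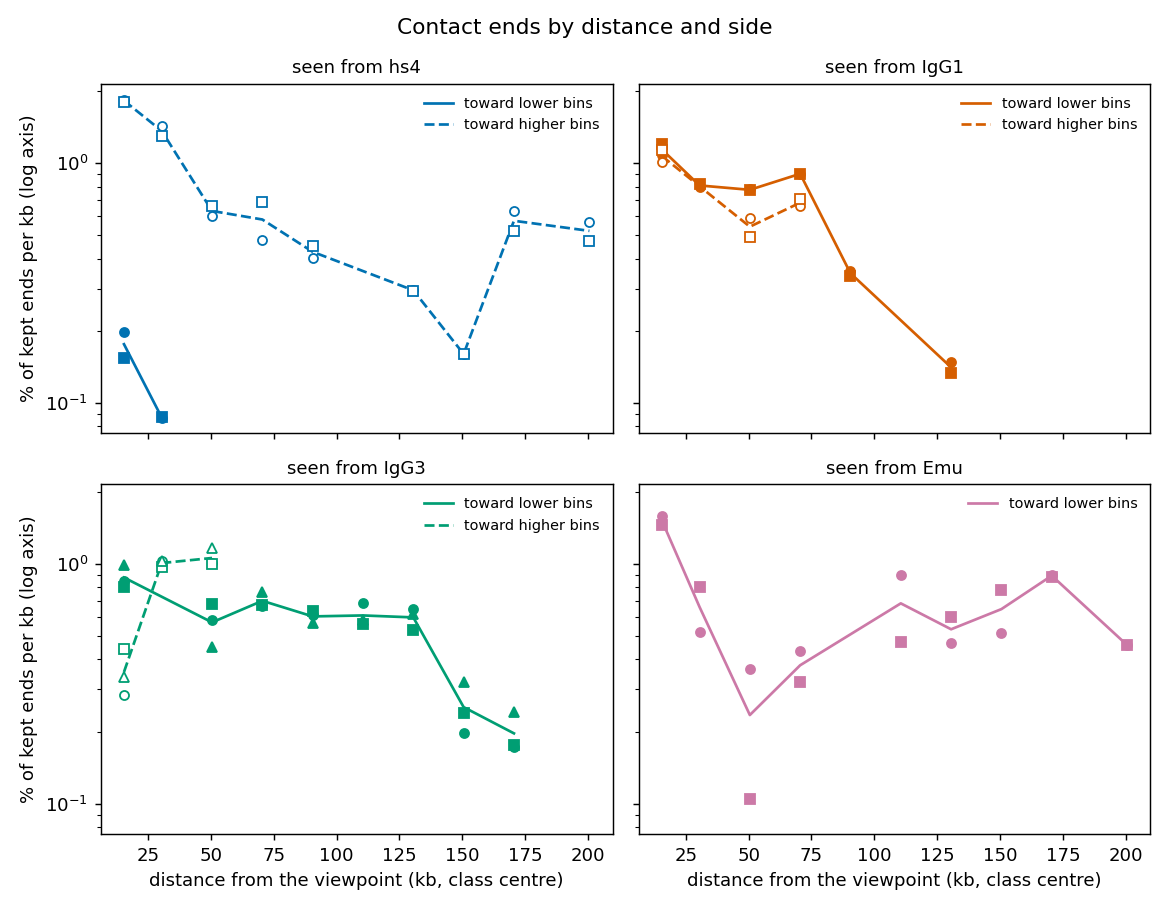
Percent of kept ends per kb (vertical log axis) by distance from the viewpoint in kb (horizontal axis), with 1 panel per viewpoint. Lines join means, symbols are samples, and filled symbols lie toward lower bins while open ones lie toward higher bins; classes with few kept bins are not drawn. The hs4 and Emu panels have a low point at about 150 and 50 kb and higher values beyond it.

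A single line through all kept bins summarised this poorly. The slope of log2 signal per kb on log2 distance was -0.67 ± 0.042 for IgG1, -0.23 ± 0.030 for Emu, -0.19 ± 0.0037 for hs4 and -0.16 ± 0.058 for IgG3. The exact permutation test over the 4 viewpoints gave a p of 0.0262 and an adjusted p of 0.0306. This was lost without Emu replicate 1, either hs4 replicate, IgG1 replicate 2, or IgG3 replicate 1 or 3, at an adjusted p of up to 0.0857. The order of the slopes rested on the range. Between 11 and 100 kb the slope was -1.19 ± 0.179 for Emu, -0.41 ± 0.031 for IgG1, 0.01 ± 0.109 for hs4 and 0.23 ± 0.052 for IgG3. Without blocks 1 and 2 it was -0.69 ± 0.0104 for hs4, since the low bins beyond hs4 are also those close to it. With 5 or 15 bins left out on either side of each viewpoint the slope nearest 0 was that of hs4, at -0.18 and -0.12, against -0.31 and -0.39 for IgG3. With 5 bins left out on either side of each viewpoint in place of 10, the gap between IgG3 and IgG1 shrank from 0.51 to 0.16.

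When each block was set against its sample's own line on distance, a pattern shared by the viewpoints came out. Blocks 5, 9, 15 and 16 lay above the line in 9 of 9 samples. Blocks 1, 2 and 13 lay below it in 9 of 9. The log2 departures ran from 0.36 to 1.33 at block 5, from 0.10 to 0.98 at block 15 and from 0.26 to 1.01 at block 16. The low blocks ran from -2.66 to -0.76, from -1.97 to -0.52 and from -2.64 to -1.0. The divisor fitted per bin may reflect the number of fragments, but no fragment map was used to check this. Over the libraries it averaged 1.18 to 3.00 at block 1, where 4 bins were empty in every library, 1.80 to 3.30 at block 13 and 2.7 to 4.8 at block 2, and 6.89 to 7.11 at block 16. At the other high blocks it averaged 3.9 to 5.8 at block 5, 4.6 to 5.8 at block 9 and 4.4 to 5.1 at block 15. It averaged 1.2 to 2.8 at block 8, which lay above the line in 7 of 9 samples. At block 6, which lay above it in 8, the divisor averaged 2.8 to 3.9. Whether the divisor bears on the departures was not tested.

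**Figure D3:**
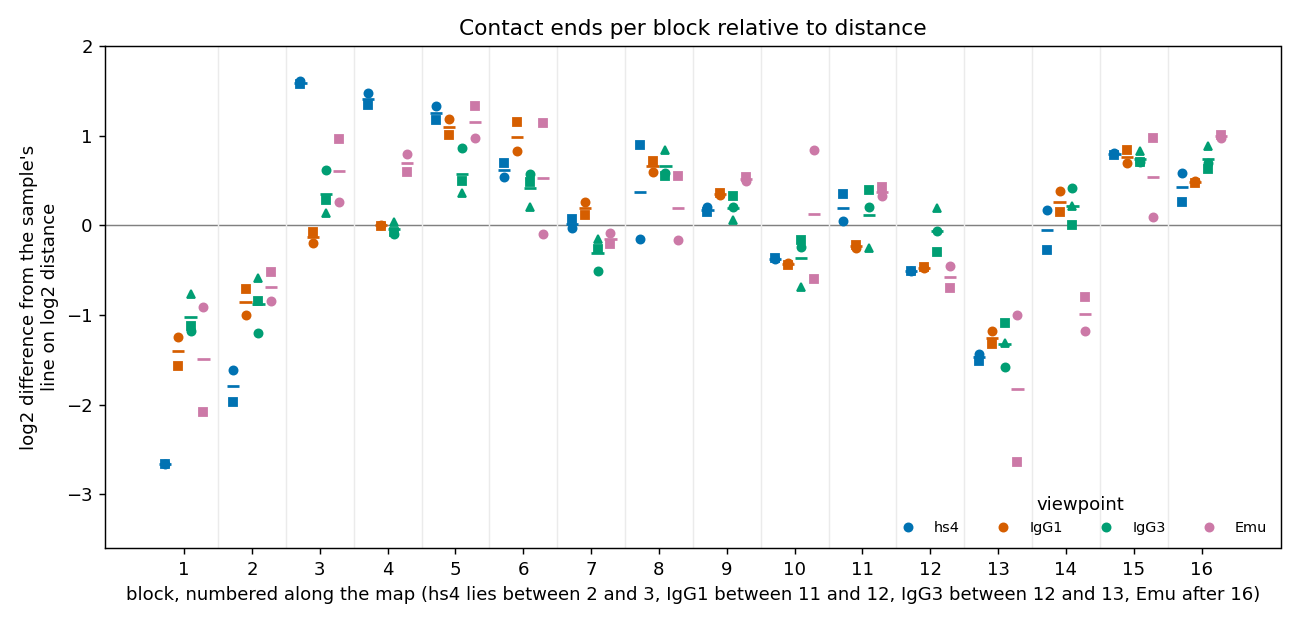
Departure of each block from its sample's line of log2 signal per kb on log2 distance (vertical axis) for the 16 blocks in map order (horizontal axis). Colours are viewpoints, symbols are samples and short bars are means. At blocks 15 and 16 all 9 samples lie above 0, and at blocks 3 and 4 the viewpoints spread from about 0 for IgG1 to over 1 for hs4.

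After this adjustment 5 of 16 blocks differed among viewpoints (31.2%), against 9 without either Emu replicate and 3 without either hs4 replicate or IgG3 replicate 2. At block 3 the departures were 1.61 and 1.57 for hs4, 0.25 and 0.96 for Emu, 0.61, 0.28 and 0.14 for IgG3, and -0.19 and -0.08 for IgG1. IgG1 was lower than hs4 there by -1.73 ± 0.26 and IgG3 by -1.25 ± 0.23 (limma, adjusted p = 0.00102 and 0.00434). At block 4 IgG1 and IgG3 were lower than Emu as well, by -0.69 ± 0.16 and -0.74 ± 0.14 (limma, adjusted p = 0.0160 and 0.00617). The IgG3 call held with every sample left out, and the IgG1 call was lost without either IgG1 replicate, at up to 0.163. Block 14 were again low from Emu, at -1.18 and -0.80. IgG3 exceeded Emu there by 1.20 ± 0.21 (limma, adjusted p = 0.00617) and IgG1 by 1.25 ± 0.23 (limma, adjusted p = 0.00942), the latter at 0.112 without IgG1 replicate 1. Between IgG3 and IgG1 no adjusted block was called by limma (0% of 16), and 3 had an unadjusted p under 0.05.

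The lines include the 2 blocks beyond hs4, and some differences against hs4 moved without them. Emu was lower than hs4 by -0.98 ± 0.26 at block 3 and by -0.72 ± 0.16 at block 4 (limma, adjusted p = 0.0188 and 0.0164). Both calls were lost without hs4 replicate 1 or 2, at up to 0.0977 and 0.0799. With blocks 1 and 2 taken out of the lines the differences were 0.14 and 0.05 (limma, adjusted p = 0.747 and 0.852). The blocks called between Emu and hs4 went from 6 of 16 to 1 of 14. Those between IgG3 and hs4 went from 5 to 2, with block 3 no longer called (-0.19, limma, adjusted p = 0.754). Those between IgG1 and hs4 were 4 with and 3 without them, and blocks 3 and 4 were called in both. That alternative was chosen after the data were seen.

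The same contact could be read from either end by looking at the windows of 11 kb around the probe sites, with only each viewpoint's own bins left out. The window at Emu is cut to 10 kb by the end of the map. By signal, the outer ends of the locus met each other most. From Emu, the hs4 window held 11.5% and 11% of ends, although it is the farthest site, while the sites of IgG2a, IgG1 and IgG3 held 3.72% ± 1.13, 2.98% ± 0.744 and 4.32% ± 0.766. From hs4, the Emu window held 8.05% and 6.55%, above the sites of IgG1 at 2.96% ± 0.811 and IgG3 at 3.78% ± 0.646, and above IgG2a, at 54 kb, with 5.04% ± 1.11. In each of these 4 samples the other enhancer was the highest of the 4 sites by signal. By recovered ends, which carry no divisor per bin, this held from Emu only. There the hs4 window had 2592 to 4560 ends and the other sites at most 1037. From hs4 the Emu window had 794 to 805, below IgG2a at 1009 to 2188. IgG1 at 721 to 1012 and IgG3 at 716 to 1077 overlapped it.

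The viewpoints at constant genes saw the enhancer ends differently from each other. From IgG3 the windows held 6.38% ± 0.959 at IgG1, 6.14% ± 1.35 at Emu, 5.42% ± 1.17 at hs4 and 4.20% ± 0.769 at IgG2a (n = 3). The samples for IgG1, Emu and hs4 overlapped. From IgG1 the nearest site, IgG3 at 27 kb, held 8.14% ± 0.0107 and IgG2a 5.87% ± 0.478, and hs4 and Emu held 3.66% ± 0.406 and 2.93% ± 0.158 (n = 2). Thus Emu took 2.81% and 3.04% of ends from IgG1, at 87 kb, and 4.78% to 7.47% from IgG3, at 60 kb, without overlap. The hs4 window took 3.38% and 3.95% from IgG1 and 4.28% to 6.61% from IgG3, although IgG3 lies 27 kb further from it. These site values are descriptions and were not tested.

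**Figure D4:**
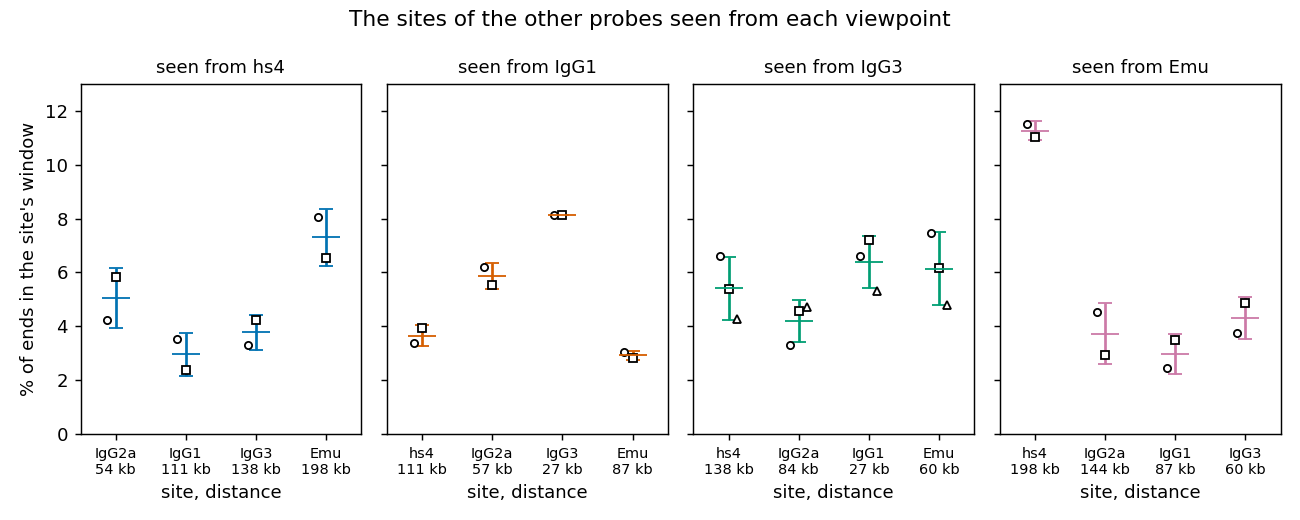
Percent of ends in the window of each other probe site (vertical axis), by site and its distance (horizontal axis), with 1 panel per viewpoint. Long dashes with bars are means ± SD and open symbols are samples. From Emu the hs4 window stands at 11.3%, above the 3 other sites, and from hs4 the Emu window stands highest at 7.30%.

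Most pairs of partners were short. Both ends fell in the same bin in 34.1% of kept contacts from hs4, 40.1% from IgG1, 43.5% from Emu and 48.9% from IgG3, and a further 24.4% to 28.4% lay 1 to 4 kb apart. Partners over 50 kb apart made up 15.7% ± 0.691 of kept contacts from hs4, 13.5% ± 0.330 from IgG1, 12.2% ± 0.306 from Emu and 10.7% ± 1.77 from IgG3. The exact permutation test gave an adjusted p of 0.0222, and without hs4 replicate 1 or 2 it was up to 0.0903. Contacts that bridged the IgG1 site, with an end on each side, were 11.2% ± 0.347 from hs4, 10.8% ± 0.458 from IgG1, 9.06% ± 0.430 from Emu and 8.81% ± 0.712 from IgG3 (exact permutation, adjusted p = 0.0300). Of the 9 tests that left out a sample 6 lost this call, those without hs4 replicate 1 or 2, IgG1 replicate 2 or any IgG3 replicate, at an adjusted p of up to 0.0850. With 15 bins left out on either side it was 0.488.

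Both shares carry the number of very short contacts in their denominator. Among contacts at least 5 kb apart, the order turned. Bridging contacts were then 27.1% ± 1.21 from hs4 and 32.9% ± 0.205, 32.6% ± 4.08 and 33.8% ± 1.36 from IgG1, Emu and IgG3, and the test did not pass (exact permutation, adjusted p = 0.137). Partners over 50 kb apart were 37.8%, 41.1%, 44.3% and 40.8% from hs4, IgG1, Emu and IgG3 (exact permutation, adjusted p = 0.690). A difference in span among these longer contacts was not detectable at a depth of 1069 to 4200 of them per library.

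Of the pairs of blocks with enough signal, 16 differed over the viewpoints in limma's F test after adjustment (12.7% of those tested), and 8 of these were contacts within 1 block. The count was 29 and 32 without Emu replicate 1 and 2, 8 without either hs4 replicate, 7 and 5 without IgG1 replicate 1 and 2, and 5 without IgG3 replicate 1 or 2. The pairs called were 10 for Emu against hs4 (7.94% of those tested), 8 for IgG1 against hs4 (6.35%), 12 for IgG3 against hs4 (9.52%), 11 each for IgG1 and IgG3 against Emu (8.73%) and 2 for IgG3 against IgG1 (1.59%). Within-block pairs followed the profile. At block 3 they were 12.2% ± 0.787 of kept contacts from hs4, 5.77% ± 1.42 from Emu, 4.56% ± 0.611 from IgG3 and 2.15% ± 0.0481 from IgG1. At block 16 they were 11.5% ± 0.472 from Emu, 7.49% ± 0.925 from IgG3, 3.56% ± 0.0282 from IgG1 and 2.80% ± 0.548 from hs4. At block 12 they were 4.45% ± 0.352 from IgG1 and 4.08% ± 0.383 from IgG3, against 1.41% ± 0.212 from Emu and 0.864% ± 0.254 from hs4. IgG1 was lower than hs4 by -2.49 ± 0.27 in the first of these (limma, adjusted p = 1.41e-05) and Emu higher than hs4 by 2.04 ± 0.25 in the second (limma, adjusted p = 7.08e-05). Also within a block, block 14 held 6.88%, 6.09% and 6.36% from IgG3 and 2.22% and 1.16% from hs4, a difference of 1.99 ± 0.36 (limma, adjusted p = 0.00149).

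Between blocks, the clearest pairs joined neighbours next to hs4. Block 3 with block 4 made up 4.16% and 3.32% of contacts from hs4, with 552 to 681 recovered contacts. From IgG1 it made up 0.562% and 0.309%, with 89 or more contacts summed over both clones. The difference was -3.10 ± 0.63 (limma, adjusted p = 0.00486), and without IgG1 replicate 2 the adjusted p was 0.115. Block 3 with block 5 made up 1.83% ± 0.419 from hs4 and 0.164% ± 0.0979 from IgG3 (limma, log2 difference -3.52 ± 0.78, adjusted p = 0.00695), and block 4 with block 5 made up 2.51% ± 0.497 and 0.477% ± 0.204. The IgG3 libraries held 7 to 23 and 35 to 83 recovered contacts in these pairs, and without hs4 replicate 1 the adjusted p of both was 0.103.

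Many other called pairs rested on very few contacts. Of the called pairs between blocks, a sample had 5 or fewer recovered contacts in 7 of 7 for IgG1 against Emu. The same held in 9 of 9 for IgG3 against Emu and 6 of 7 for Emu against hs4. By comparison it held in 1 of 2 for IgG1 against hs4, 1 of 4 for IgG3 against hs4 and 5 of 8 in the F test. For example, block 11 with block 12, which lie on either side of IgG1, held 0 recovered contacts in both Emu libraries. The IgG1 samples, each summed over both clones, held 35 to 100, and the IgG3 libraries 14 to 48. A count of 0 allows up to 3 contacts, or 0.0565% of the 5313 kept in the shallower Emu library, by counting error only. Block 11 with block 14, which also bridge the IgG1 site, held 60 to 61 contacts in the IgG1 samples, 5 to 18 from Emu, 6 to 14 from IgG3 and 0 to 5 from hs4. Block 2 with block 16, which reach across nearly the whole map, were 0.455% and 0.452% from Emu, with 8 to 12 contacts, and at most 0.127% in every other sample. No fold is given for these. Of the 30 named differences in pairs, 7 stayed called with each sample left out, all of them within a block. With contacts under 5 kb apart left out, no pair differed over the viewpoints after limma's adjustment, against 16 with them.

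Pairs of distant blocks that were strong from several viewpoints were counted by a strict rule. Among pairs of blocks with centres at least 20 kb apart, a viewpoint was taken to hold a pair where every sample of it had the pair at or above its own 80th percentile of signal per bin pair. IgG1 held 17 pairs, hs4 11, Emu 9 and IgG3 6. These counts depend on how many samples a viewpoint has, since every sample must pass. With its 4 libraries kept apart IgG1 held 5, and with clone 1 or 2 alone 13 or 11. Without either of its own replicates Emu, hs4 and IgG1 each held 22, and without IgG3 replicate 1 or 3 IgG3 held 10. The pairs considered divide fully into 74 held from no viewpoint, 26 from 1, 5 from 2, 1 from 3 and 1 from all 4. Block 9 with block 11 were held from 3, namely Emu, IgG1 and IgG3, and block 7 with block 9 from all 4.

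Both of these lie in the stretch from the IgG2a site, which block 7 holds, to IgG1, with centres 20 kb apart. The pair held by all made up 0.869% and 0.494% of contacts from hs4, 0.706% and 0.701% from IgG1, 0.465%, 0.477% and 1.45% from IgG3, and 0.652% and 1.60% from Emu, so the 4 viewpoints overlapped. It rests on at least 33 recovered contacts per sample, with both clones summed for IgG1. The pair held from 3 made up 1.36% and 1.13% from IgG1, 1.02%, 1.13% and 0.946% from IgG3, 0.787% and 0.710% from Emu, and 0.829% and 0.211% from hs4. With the signal of each pair taken relative to that of pairs of like separation, no pair was held by all 4. Nor was any pair held by all 4 with IgG1 clone 1 alone, with the IgG1 libraries apart or at the 90th percentile. Relative to separation, the 2 pairs held by 3 were block 9 with block 11, and block 3 with block 16, whose centres lie 167.5 kb apart beside hs4 and beside Emu.

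This last pair joins the flanks of both enhancers and was held from Emu, hs4 and IgG3. That pair made up 0.464% and 0.592% of contacts from hs4, 0.322% and 0.241% from Emu, 0.198%, 0.110% and 0.127% from IgG3, and 0.112% and 0.0610% from IgG1. The recovered contacts were at least 97 from hs4, 28 to 32 from Emu, 14 to 26 from IgG3 and 20 to 43 from IgG1. Those of an IgG1 sample are summed over both clones. The hs4 samples were highest and the Emu samples next, and those of IgG3 and IgG1 overlapped.

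**Figure D5:**
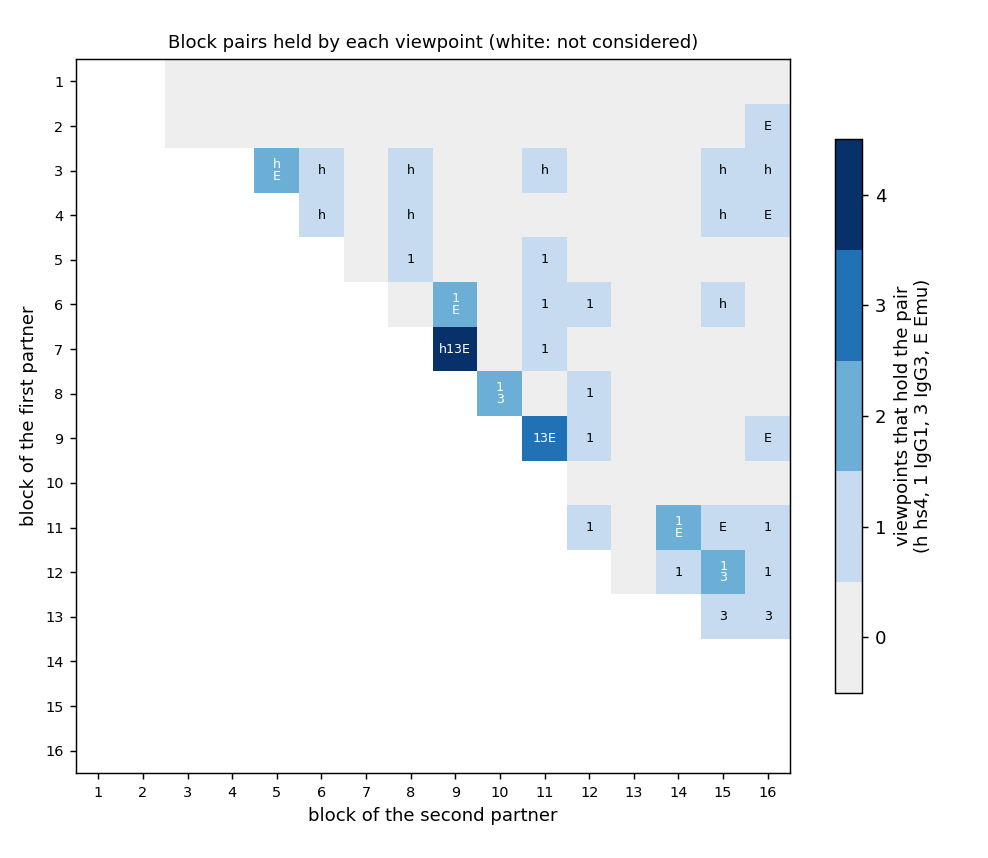
Pairs of blocks by the number of viewpoints that hold them (colour, 0 to 4), with the block of the first partner on the vertical axis and that of the second on the horizontal axis, in map order. Letters name the viewpoints and white cells were not considered. Pairs held from hs4 lie in rows 3 and 4 except block 6 with block 15 and block 7 with block 9, those held from IgG1 lie in rows 5 to 12, and the darkest cell, block 7 with block 9, is held by all 4.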

How the data were processed

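Tri-C contacts of mouse primary B cells were measured at the Igh locus. Per the labels, crosslinked chromatin was cut with NlaIII and ligated, and libraries were hybridized to their probes in 2 rounds. Per the submitters' processing notes, reads were aligned with Bowtie2 to mm9. No source used here names the contact caller, the handling of duplicates or the normalization. The values the authors deposited are a signal: per library 1 matrix with 234 rows and columns, each 1 kb, filled above the diagonal, without coordinates and with a total of 300000. Values fitted whole contacts times a scale over an integer divisor that each bin carries. That divisor was inferred (at most 14, tolerance 0.04 of a contact, tested on values under 20 contacts), and the fit was chosen to make off-diagonal values whole, so their share of 100% is no test of it. On the diagonal 77.8% to 100% were whole. Apart from the site windows and the voom alternative, recovered contacts give depth alone, and for pairs of blocks those of an IgG1 sample are summed over both clones. Whether recovered contacts are independent molecules is not given.

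Kept contacts (both ends in the 156 kept bins) were scaled to 300000 per sample. Ends in 16 blocks, and 126 of 136 block pairs with a mean of at least 100, were tested as log2(signal + 50) with limma 3.58.1 in R 4.3.3 over the 9 samples, in 6 contrasts and an F test. Fold changes are on that scale, which understates changes of low values. P-values were adjusted by Benjamini-Hochberg over blocks or pairs, with calls at 0.05. Percentages of ends or contacts, a single value per sample, were compared by exact permutation of the F statistic (Python 3.11.15). Tests between 2 viewpoints alone cannot go below 0.333 with 2 against 2 or 0.100 with 2 against 3, so all 4 were tested together. Recovery and tests were checked on simulated data. For each contrast, the 3 called blocks, adjusted blocks and block pairs with the largest change each way and no overlap of samples could be named; other blocks and pairs in the text were described without that rule. Stretches, blocks and viewpoints were chosen with earlier results of these data known. No sequence is shown, because no genome or probe sequence was used here.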

Additional observations from a re-analysis of the deposited data

How the results depend on the processing

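Of 569 recomputed values of the 33 results that answer a comparison, 379 were taken as unchanged. For a tested value this meant the same direction and side of the threshold. A count was also taken as unchanged where it moved by no more than a set fold. A site or side value was so taken where it stayed within its SD. Values not listed below may therefore differ somewhat from those above. The tests of the 3 stretch shares past the threshold kept their calls, and 1 contrast in each its direction, under every alternative run, each sample left out included; with 5 bins left out the order of viewpoints turned in 2 stretches, and with 15 the IgG1 to IgG3 stretch gave no value. The cause of the changes below was not tested, except that settings with fewer contacts, samples or bins also have less to test. With 5 bins left out per side, blocks called were 5 for Emu against hs4, 10 for IgG1 against hs4, 11 for IgG3 against Emu and 11 for IgG3 against IgG1. Adjusted blocks were 11 by the F test, 7 for IgG3 against Emu and 1 for IgG3 against IgG1. Pairs were 29 by the F test, 23 for Emu against hs4, 14 for IgG1 against hs4, 27 for IgG3 against hs4, 17 for IgG1 against Emu, 4 for IgG3 against Emu and 4 for IgG3 against IgG1. Pairs held by 3 or 4 viewpoints were 4, out of more pairs considered than with 10 bins left out. The bridging share differed by 2.85 points (hs4 minus IgG3, adjusted p = 0.0960, exact permutation), the share beyond hs4 by 1.27 (IgG3 minus IgG1, adjusted p = 0.0241), the IgG3 side ratio was 0.14 and hs4 from Emu 10.3%. With 15 left out, blocks were 7 by the F test, 1 for IgG1 against Emu, 2 for IgG3 against Emu and 1 for IgG3 against IgG1, and pairs 10 by the F test, 5 for Emu against hs4, 2 for IgG1 against Emu, 1 for IgG3 against Emu and 0 for IgG3 against IgG1. The bridging and far shares differed by 1.90 and 3.73 (no longer past the threshold), the IgG3 side ratio was -1.07, over 2 distances, and hs4 from Emu 12%.

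With the IgG1 libraries kept apart, blocks were 6 for Emu against hs4 and 9 for IgG3 against IgG1. Adjusted blocks were 10 by the F test, 5 for IgG1 against Emu, 4 for IgG3 against Emu and 2 for IgG3 against IgG1. Pairs were 36, 16 for Emu against hs4, 22 for IgG1 against hs4 and 19 for IgG1 against Emu, and the share beyond hs4 differed by 2.13 (adjusted p = 0.0310, exact permutation). Clone 1 alone gave 3 blocks for IgG3 against IgG1 and an IgG1 side ratio of 0.52, and clone 2 alone 6 pairs for IgG1 against Emu, 0 for IgG3 against IgG1 and a ratio of 0.34. Voom on recovered contacts called 49 pairs by the F test, 18, 35 and 22 for Emu, IgG1 and IgG3 against hs4 and 18 and 7 for IgG1 and IgG3 against Emu, and 5 and 13 blocks for Emu and IgG1 against hs4. There, block 1 turned to -0.58 for IgG3 against IgG1. Median-of-ratios scaling called 5 and 7 pairs for Emu against hs4 and IgG1 against Emu. Without the filter, pairs were 5 for IgG3 against Emu and 0 for IgG3 against IgG1, and with a pseudocount of 200, 5 for IgG3 against Emu. Without contacts under 5 kb apart, blocks were 7 by the F test and 0 for IgG3 against IgG1. Adjusted blocks were 1 each for IgG3 against hs4 and IgG3 against IgG1. Of 130 pairs tested, 0 were called by the F test and for Emu against hs4, IgG3 against hs4 and IgG3 against IgG1. Pairs were 1 for IgG1 against hs4 and 5 for IgG1 against Emu. The bridging, far and beyond-hs4 differences turned to -6.69, -2.99 and -0.28, block 1 to -0.66 for IgG3 against hs4 and -1.08 for IgG3 against IgG1, and pairs within block 15 to -2.64 for Emu against hs4 and within block 3 to 0.10 for IgG1 against Emu and -1.36 for IgG3 against IgG1. Without blocks 1 and 2, an alternative added after the data were seen, 14 adjusted blocks were tested. Those called were 1 for Emu against hs4, 2 for IgG3 against hs4, 5 for IgG1 against Emu and 5 for IgG3 against Emu. Emu minus hs4 turned to 0.14 and 0.0527 at blocks 3 and 4.

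Replicate numbers were not taken to pair the samples, because no label gives them a shared source and viewpoints share only 2 numbers. Differences of replicate 1 and 2 over the blocks correlated at 0.17 to 0.44 among hs4, IgG1 and Emu, which share a series, and at -0.51 to 0.15 between IgG3 and these. A replicate block gave 7 blocks by the F test and 2 for IgG3 against IgG1, 2 adjusted blocks by the F test and 3 for IgG3 against hs4, and 5 pairs by the F test, 1 for Emu against hs4, 7 for IgG1 against Emu, 0 for IgG3 against Emu and 0 for IgG3 against IgG1. With each sample left out, where a lone sample is assumed to vary like the other groups, blocks called ranged from 5 to 15 by the F test, 3 to 9 for Emu against hs4, 5 to 10 and 5 to 11 for IgG1 and IgG3 against hs4, 4 to 11 and 2 to 8 for IgG1 and IgG3 against Emu, and 0 to 10 for IgG3 against IgG1. Adjusted blocks ranged from 3 to 9, 0 to 9, 2 to 4, 3 to 6, 0 to 5, 2 to 8 and 0 to 4 in that order, and pairs from 5 to 32, 1 to 20, 3 to 16, 4 to 21, 1 to 24, 0 to 26 and 0 to 3. The slope difference ranged from 0.48 to 0.54, the bridging difference from 1.98 to 2.63 and the far difference from 4.00 to 5.71. Depth limits pairs between blocks: contacts at least 5 kb apart numbered 1069 to 4200 per library.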
